A study of Mus musculus with 18 samples.

Results

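The expression of 10 genes that are used to read the activation state of macrophages was followed through blood development in culture and in fibroblasts reprogrammed to blood. The 10 genes, *Il1b*, *Il1rn*, *Tnf*, *Il6*, *Il10*, *Ptgs2*, *Nos2*, *Arg1*, *Retnla* and *Chi3l3*, were chosen by symbol, and all 10 were found among the 20310 genes of the differentiation stages and among the 20495 genes of the fibroblasts. RNA-seq values came from 18 mouse samples of strain 129. Of these, 10 samples, 2 for each of 5 stages, followed an embryonic stem (ES) cell line with a Brachyury-GFP reporter from ES cells grown on feeder fibroblasts (ESC) through sorted mesoderm (MES, Bry+ Flk1-), haemangioblast (HB, Bry+ Flk1+) and haematopoietic progenitors (HP, CD41+) to macrophages (MAC), which were CD11b+ cells grown from the CD41+ cells. Haemogenic endothelium (HE), which lies between HB and HP, was not analysed here, so the step from HB to HP spans it. The other 8 samples were single libraries of mouse embryonic fibroblasts (MEFs) from embryonic day 14.5, taken at day 12 and at day 21. They were untreated (uFIB) or carried *Scl* (also called *Tal1*) and *Lmo2* (SL), *Scl*, *Fli1*, *Gata2* and *Lmo2* (SFGL), or *Fli1*, *Gata2* and *Lmo2* (FGL). *Lmo2*, *Fli1* and *Gata2* were delivered by lentivirus, whereas *Scl* could be induced with doxycycline from a transgene of the iTal1-2A-GFP mouse, and wild-type MEFs were also used in the study without the labels saying which library they gave. The haematopoietic medium of the reprogrammed cells contained IL3, GM-CSF, M-CSF and IL6 among its cytokines.

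Macrophages change their expression with the signals they meet. Bacterial products and interferon-γ, acting in part through NF-κB, are known to turn on a set of genes that includes *Il1b*, *Tnf*, *Il6*, *Ptgs2* and *Nos2*, whereas IL-4 and IL-13, acting through STAT6, turn on *Arg1*, *Retnla* and *Chi3l3*, and the mRNAs of several of these cytokines are short-lived. None of these genes belongs to macrophages alone: neutrophil precursors make *Chi3l3*, fibroblasts can make *Il6*, and epithelial cells and fibroblasts can make *Il1rn*.

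The genes lie on separate chromosomes or far apart on the same one (mm10, counted from 1). *Il1b* is at chr2:129364580-129371120, *Il1rn* at chr2:24336860-24351491, *Tnf* at chr17:35199391-35201996, *Il6* at chr5:30013161-30019968, *Il10* at chr1:131019845-131024970, *Ptgs2* at chr1:150100124-150108012, *Nos2* at chr11:78920859-78960124, *Arg1* at chr10:24915207-24927470, *Retnla* at chr16:48842552-48844461 and *Chi3l3* (RefSeq symbol *Chil3*) at chr3:106147554-106167564. In RefSeq, a further gene overlaps *Il1b* (*Il1bos*), *Il6* (*A230098N10Rik*) and *Arg1* (*Gm40616*), and whether reads were counted by strand is not given in the sources used here, so that reads of an overlapping gene could be part of these 3 values.

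RefSeq promoter windows on GRCm38.p6, from 250 bases before to 50 bases after an annotated start, matched 7 of the 10 genes. The 5 windows below are shown because *Tnf* and *Il1b* were among the genes high in MAC, *Chi3l3* and *Retnla* were near 0 in MAC but expressed in reprogrammed MEFs, and *Il6* had a level in all 8 MEF libraries. Capitals mark matches to TATAAA (on the gene's strand only) and, on either strand, to TTNNGCAA (a C/EBP-type sequence), TGANTCA (AP-1), GAGGAA (part of PU.1 sites) and the NF-κB consensus.
Tnf, chr17:35201958-35202257, minus strand: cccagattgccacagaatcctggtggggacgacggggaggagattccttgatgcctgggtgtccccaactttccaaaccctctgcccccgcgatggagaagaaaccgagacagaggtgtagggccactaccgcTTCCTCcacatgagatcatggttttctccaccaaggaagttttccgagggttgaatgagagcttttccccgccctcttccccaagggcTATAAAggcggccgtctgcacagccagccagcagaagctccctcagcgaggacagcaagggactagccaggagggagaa
Il1b, chr2:129371090-129371389, minus strand: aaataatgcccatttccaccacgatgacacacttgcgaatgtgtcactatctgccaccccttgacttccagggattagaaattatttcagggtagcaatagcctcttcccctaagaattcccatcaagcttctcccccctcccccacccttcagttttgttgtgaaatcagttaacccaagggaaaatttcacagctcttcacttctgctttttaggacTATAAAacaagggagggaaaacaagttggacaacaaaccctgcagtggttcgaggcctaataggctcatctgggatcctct
Chi3l3, chr3:106167515-106167814, minus strand: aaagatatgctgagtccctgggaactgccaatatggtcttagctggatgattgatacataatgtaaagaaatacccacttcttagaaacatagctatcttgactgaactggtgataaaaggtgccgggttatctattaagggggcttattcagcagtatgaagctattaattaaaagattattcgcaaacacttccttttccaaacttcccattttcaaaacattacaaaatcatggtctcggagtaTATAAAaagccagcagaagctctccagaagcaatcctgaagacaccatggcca
Retnla, chr16:48842359-48842658, plus strand: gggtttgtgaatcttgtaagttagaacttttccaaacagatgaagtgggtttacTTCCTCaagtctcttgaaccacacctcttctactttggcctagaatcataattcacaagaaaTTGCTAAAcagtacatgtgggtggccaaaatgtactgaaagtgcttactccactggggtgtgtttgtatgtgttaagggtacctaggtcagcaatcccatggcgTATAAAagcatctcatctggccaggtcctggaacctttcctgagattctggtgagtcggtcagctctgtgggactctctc
Il6, chr5:30012864-30013163, plus strand: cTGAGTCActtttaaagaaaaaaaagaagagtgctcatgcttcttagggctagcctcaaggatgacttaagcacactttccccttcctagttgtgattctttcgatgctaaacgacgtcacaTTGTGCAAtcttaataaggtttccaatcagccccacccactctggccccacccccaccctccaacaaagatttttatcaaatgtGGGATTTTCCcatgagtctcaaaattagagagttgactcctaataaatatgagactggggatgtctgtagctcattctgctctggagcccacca

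TATAAA was present in the windows of *Tnf*, *Il1b*, *Chi3l3* and *Retnla*, 4 of the 7 genes, and in 8.32% of all 32851 windows of this length. It began 29 bases before the start of *Tnf*, 31 before that of *Il1b*, 30 before that of *Retnla* and 3 before that of *Chi3l3*. TTNNGCAA was present for *Ptgs2*, *Retnla* and *Il6* (10.8% of all windows), GAGGAA for *Ptgs2*, *Retnla* and *Tnf* (28.3%) and TGANTCA for *Il1rn* and *Il6* (7.81%). The NF-κB consensus was matched only by *Il6* among the 7 genes and by 4.51% of all windows. These matches describe the letters of the windows and do not show binding.

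All values are FPKM, which is scaled for transcript length and for the depth of the library, so that levels of different genes can be set side by side within a table; the tables of stages and of MEFs were normalized separately. Each stage has 1 value in which the authors combined the replicates, and each MEF condition has 1 library, so no value has a replicate error and no difference was tested. A difference is called higher or lower past the limit when log2(FPKM + 1) differed by at least 1, a scale that understates changes of low genes; where one sample is listed at 0 the difference depends on the added 1, and no fold is given. The cell types were compared with their markers first. In MAC 6 of the 7 macrophage markers with a row were at 1 FPKM or more and summed to 2564 FPKM against 18.9 FPKM in HP, with *Emr1* at 353 FPKM and *Csf1r* at 234 FPKM. Some markers of other cells were higher there than in HP as well, and others were lower. The 9 neutrophil markers summed to 56.8 FPKM in MAC against 20.3 FPKM in HP, mostly from *S100a8* at 39.1 FPKM and *S100a9* at 13.7 FPKM. The granule genes *Mpo* (9.57 to 0.584 FPKM), *Prtn3* (7.91 to 1.55 FPKM) and *Elane* (1.52 to 0.0306 FPKM) were lower in MAC, past the limit. The eosinophil marker *Prg2* was at 29.6 FPKM against 0 FPKM and the mast cell marker *Cpa3* at 18.7 FPKM against 0.248 FPKM. In MAC 3 of the 8 mast cell and basophil markers were at 1 FPKM or more, and 1 of them, *Gata2*, was lower than in HP (3.52 to 1.58 FPKM). The part of such cells in the differences from HP to MAC was not tested. In SL and SFGL all 9 neutrophil markers were at 1 FPKM or more and summed to 9707 to 36364 FPKM, 4 of 5 eosinophil markers were and summed to 1602 to 10739 FPKM, and mast cell and basophil markers summed to 876 to 1063 FPKM. The last sum includes *Gata2*, itself a delivered factor in SFGL, which was at 62.6 to 132 FPKM in SL and SFGL. The macrophage markers summed to 1258 to 2880 FPKM there, but most of this was *Lyz2*, which neutrophils share. Of the other macrophage markers, *Itgam* was at 52.8 to 156 FPKM, *Fcgr3* at 68.2 to 200 FPKM, *Cd68* at 14.3 to 30.1 FPKM and *Mpeg1* at 4.50 to 19.7 FPKM in SL and SFGL, all above uFIB, whereas *Emr1* was at 1.89 to 6.69 FPKM and *Csf1r* at 0.734 to 1.92 FPKM. *Ptprc* was at 1.79 to 4.83 FPKM and *Marco* at most 0.0396 FPKM there. Which cells these markers came from was not tested. Fibroblast markers were at 1281 to 2551 FPKM in SL and SFGL, against 5756 to 7380 FPKM in uFIB and in the libraries labelled FGL. The uFIB library of day 21 held 250 FPKM of neutrophil markers against 13.2 FPKM at day 12. The library labelled FGL of day 21 went against its label in part, since *Fli1*, at 3.35 FPKM, was near the 3.02 FPKM of uFIB. *Tal1*, which this label does not name, was at 7.04 FPKM in FGL at day 12. Likewise *Fli1*, which the label SL does not name, was at 46.7 FPKM in SL at day 12 and 34.4 FPKM at day 21. These values by gene do not separate a delivered copy from the cell's own gene. In such bulk samples fewer cells of a type and less RNA per cell cannot be told apart.

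In ES-cell differentiation, 3 of the 10 genes had their highest level by far in MAC: *Il1rn*, *Tnf* and *Il1b*. *Ptgs2* was highest in HP and MAC, and *Il6*, *Il10*, *Nos2*, *Arg1*, *Retnla* and *Chi3l3* were all at or below 0.120 FPKM in MAC. From HP to MAC, 3 of 10 genes were higher past the limit, where 17.8% of all 20310 genes were, and 0 of 10 were lower, where 7.39% of all genes were. The median difference of the 10 genes was 0.09, beside a median of 0.00 over all genes.

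**Figure D1:**
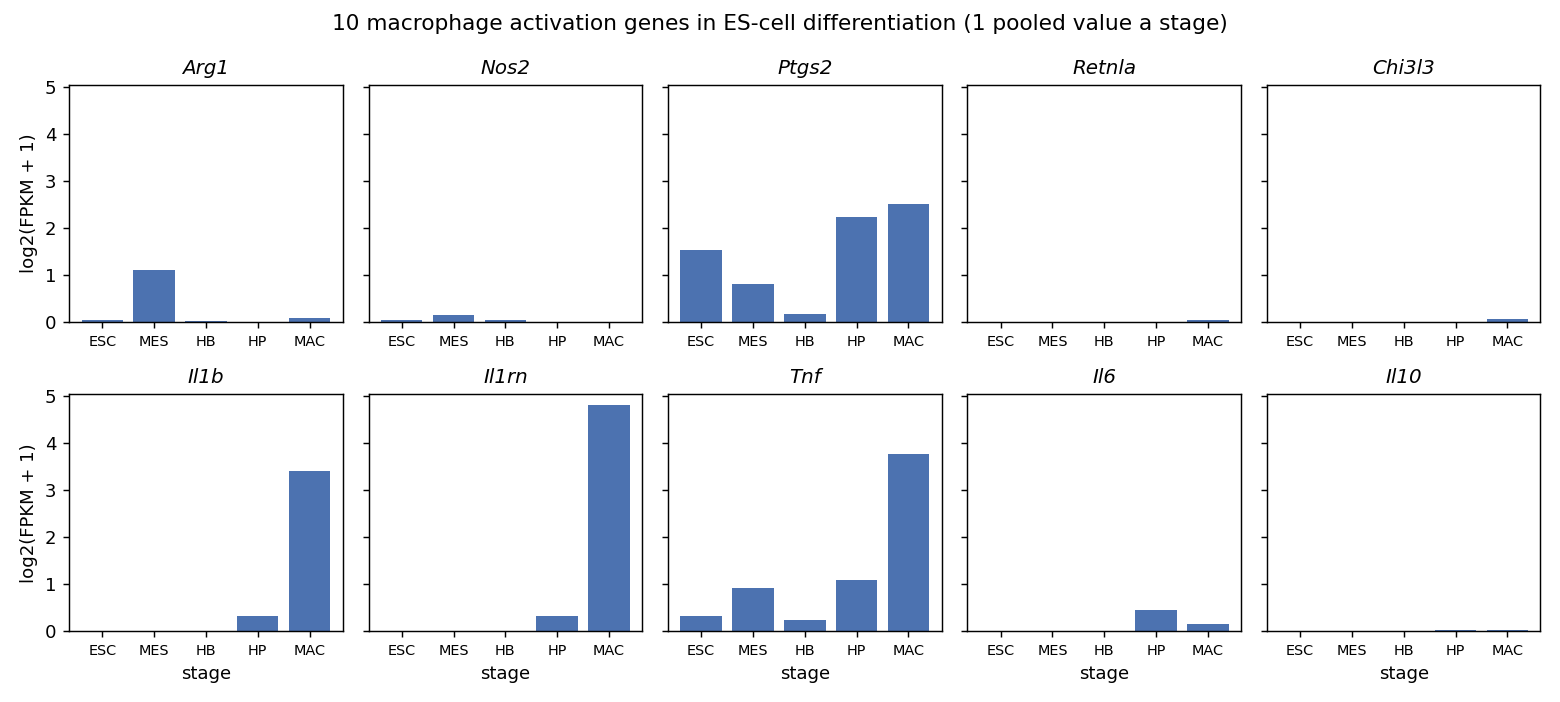
Expression of the 10 genes as log2(FPKM + 1) (vertical axis) at the 5 stages (horizontal axis), with 1 bar for the pooled value of each stage and no error. *Il1rn*, *Tnf* and *Il1b* are highest in MAC, *Ptgs2* is highest in HP and MAC, *Arg1* is highest in MES, and the bars of *Retnla*, *Chi3l3* and *Il10* stay near 0.

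*Il1b* encodes the inflammatory cytokine IL-1β. It was listed at 0 FPKM in ESC, MES and HB, and was at 0.261 FPKM in HP and 9.62 FPKM in MAC. The step from HP to MAC was 3.07 on the log2(FPKM + 1) scale. *Il1rn* encodes the secreted antagonist that occupies the IL-1 receptor without signalling. It followed the same order of stages, listed at 0 FPKM in ESC, MES and HB, then 0.251 FPKM in HP and 26.9 FPKM in MAC. This was the largest step of the 10 genes, 4.48 on the log2(FPKM + 1) scale. The table has 2 transcription start site (TSS) rows for *Il1rn*, of which one held 24.2 FPKM in MAC, or 89.6% of the gene, and the other held 2.79 FPKM.

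*Tnf*, which encodes tumour necrosis factor, differed from these 2 genes in having a low level in ESC, MES, HB and HP alike. It was at 0.255 FPKM in ESC, 0.908 FPKM in MES, 0.181 FPKM in HB, 1.13 FPKM in HP and 12.6 FPKM in MAC. MAC was 11.2 times as high as HP, a difference of 2.68 on the log2(FPKM + 1) scale. *Il6*, a cytokine that acts through gp130, was listed at 0 FPKM in ESC, MES and HB and was at 0.374 FPKM in HP and 0.120 FPKM in MAC. *Il10*, the anti-inflammatory cytokine, was listed at 0 FPKM in ESC and MES and was at 0.00837 FPKM in HB, 0.0145 FPKM in HP and 0.0285 FPKM in MAC. Neither cytokine thus came near the level of *Tnf* or *Il1b* in MAC.

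Of the enzymes, *Ptgs2* encodes cyclooxygenase-2, the inducible enzyme of prostaglandin synthesis. It was at 1.89 FPKM in ESC, 0.754 FPKM in MES, 0.136 FPKM in HB, 3.70 FPKM in HP and 4.74 FPKM in MAC. It was called from HB to HP, where no cytokine was on this scale (with a pseudocount of 0.1, *Tnf* was, at 2.12): HP was 27.1 times as high as HB, a difference of 2.05 on the log2(FPKM + 1) scale. The difference between HP and MAC was 0.29 as deposited and -0.30 when both stages were scaled to the same upper quartile, so its direction depended on the scaling. *Nos2*, inducible nitric oxide synthase, was at 0.0376 FPKM in ESC, 0.111 FPKM in MES, 0.0293 FPKM in HB, 0.00634 FPKM in HP and 0.00865 FPKM in MAC. *Arg1*, arginase-1, which takes arginine away from nitric oxide synthesis, was at 0.0359 FPKM in ESC, 1.16 FPKM in MES, 0.0201 FPKM in HB, 0 FPKM in HP and 0.0675 FPKM in MAC. Both enzymes that compete for arginine were close to 0 in MAC, and of the 2 only *Arg1* was called at any stage, in MES.

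The secreted proteins of the IL-4 programme were as low. *Retnla*, which encodes resistin-like molecule α, and *Chi3l3*, which encodes the chitinase-like protein Ym1, were listed at 0 FPKM in ESC, MES, HB and HP, and in MAC they were at 0.0292 FPKM and 0.0558 FPKM. Their relatives were low too: in MAC *Chi3l1* was at 1.42 FPKM, and *Retnlg*, *Retn*, *Retnlb*, *Chi3l4* and *Chia* were listed at 0.

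At the earlier transitions few of the 10 genes passed the limit. From ESC to MES 1 of 10, *Arg1*, was higher, by 1.06 on the log2(FPKM + 1) scale (3.63% of all genes higher), and 0 of 10 were lower (3.81%). From MES to HB *Arg1* was lower again, the only one of 10 (1.66%), and 0 of 10 were higher (1.27%). From HB to HP 1 of 10, *Ptgs2*, was higher (4.59%), and 0 of 10 were lower (4.55%).

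The step from HP to MAC depended on the scaling over all genes. For the 10383 genes that averaged 1 FPKM or more in HP and MAC the median difference was 0.46, and -0.17 once upper quartiles were made equal, and 70.7% of the called genes were higher as deposited against 44.0% after scaling. Relative to the median as deposited, *Il1rn* was higher in MAC by 4.03, *Il1b* by 2.62 and *Tnf* by 2.22 on the log2 scale. Between the scaled values the differences themselves were 3.90, 2.53 and 2.06, so the 3 calls held with and without scaling.

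The partners of these genes were taken from 10 lists of their pathways, with 115 genes that had a row in the stages. From HP to MAC 60 of the 115 were higher and 5 were lower past the limit, beside 17.8% and 7.39% of all genes. After scaling these counts were 48 and 9, beside 2087 genes higher and 2656 lower among all 20310. In the IL-1 system 10 of 11 were higher, among them *Casp1*, the protease that cleaves pro-IL-1β (0.498 to 39.0 FPKM), *Il18* (0.271 to 29.4 FPKM), *Il1a* (0 to 11.5 FPKM) and the decoy receptor *Il1r2* (0.383 to 8.71 FPKM). In the TNF system 6 of 9 were higher, among them the receptor *Tnfrsf1b* (1.82 to 34.9 FPKM), the feedback inhibitor *Tnfaip3* (1.94 to 28.5 FPKM), *Ripk1* (6.77 to 37.2 FPKM) and the sheddase *Adam17* (11.7 to 54.1 FPKM). Of the list around *Il6* and *Il10*, 7 of 10 were higher, although both cytokines were near 0 in MAC. This list holds *Osm*, *Lif*, *Socs3* and *Bcl3* beside receptors and signalling genes, and *Socs3* was 1 of the 7, by 1.07. The largest differences were those of *Il10rb* (6.27 to 134 FPKM), *Il6st*, which encodes gp130 (9.72 to 112 FPKM), *Tyk2* (4.45 to 26.0 FPKM) and *Jak1* (17.7 to 79.9 FPKM).

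Around *Ptgs2*, 6 of 12 genes for the synthesis, breakdown and reception of prostanoids were higher and 2 were lower in MAC. The 6 were the synthesis genes *Ptgs1*, *Hpgds* and *Tbxas1*, the receptors *Ptger2* and *Ptger4* and *Hpgd*, which degrades prostaglandins, led by prostaglandin D synthase *Hpgds* (0.839 to 95.9 FPKM), *Hpgd* (5.55 to 178 FPKM), thromboxane synthase *Tbxas1* (0.911 to 45.6 FPKM) and the constitutive cyclooxygenase *Ptgs1*. *Ptgs1* was at 71.4 FPKM in MAC, against 4.74 FPKM for *Ptgs2*. Around *Nos2* and *Arg1*, 3 of 10 genes were higher and 1 was lower, beside 17.8% and 7.39% of all genes: the arginine transporter *Slc7a2* (0.321 to 55 FPKM), *Gch1*, which makes the cofactor of nitric oxide synthase (0.890 to 15.8 FPKM), *Asl* (11.9 to 35.8 FPKM) and, lower, *Ddah2* (26.1 to 2.45 FPKM). Of the list around the pathway that induces *Nos2*, which also holds targets of the pathway, 11 of 19 genes were higher and 0 lower. These were led by *Irf8* (3.0 to 127 FPKM), *Irf5* (1.73 to 55 FPKM), *Tlr4* (1.84 to 49.1 FPKM) and *Cd86* (0.622 to 25.5 FPKM), while *Ifng* itself was listed at 0 in both stages. Of the list around the pathway that induces *Arg1* and *Retnla*, which holds targets such as *Mrc1* beside inducers, 8 of 16 were higher and 0 lower. These were led by *Mrc1* (0.629 to 279 FPKM), *Pparg* (0.163 to 60.9 FPKM), *Il13ra1* (1.32 to 22.7 FPKM) and *Stat6* (8.64 to 70.7 FPKM). Other genes of this list stayed low in MAC, among them *Ccl22* at 0.566 FPKM, *Ccl24* at 0.340 FPKM and *Cd163* at 0.00317 FPKM. Receptors and signalling genes for both kinds of signal were therefore high in MAC, where *Nos2*, *Arg1*, *Retnla* and *Chi3l3* were near 0.

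Of NF-κB subunits and inhibitors 7 of 12 were higher and 0 lower in MAC, beside 17.8% and 7.39% of all genes. The largest differences were those of *Nfkbia* (6.66 to 47.0 FPKM), *Nfkb2* (3.59 to 12.5 FPKM), *Relb* (0.934 to 4.41 FPKM) and *Rel* (0.917 to 4.14 FPKM). On the log2(FPKM + 1) scale *Nfkbia* was higher by 2.65, and *Nfkb2*, *Relb* and *Rel* were nearer the limit, at 1.55, 1.48 and 1.42. Of 9 factors that bind AU-rich mRNAs, 1 was higher and 2 were lower, beside 17.8% and 7.39% of all genes. The higher one was *Zfp36*, which destabilises *Tnf* mRNA (9.52 to 28.3 FPKM, a difference of 1.48). Lower were *Hnrnpd* (11.6 to 2.67 FPKM) and *Khsrp* (24.2 to 10.2 FPKM). Of the 7 paralogs, *Chi3l1* was the 1 called, higher by 1.21, beside 17.8% of all genes. The upper quartile was 10.8 FPKM in HP and 18.0 FPKM in MAC, so differences near the limit depend on the scaling. Counts by list after scaling are not given here.

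In the MEFs, 9 of the 10 genes had their lowest level in uFIB or in a library labelled FGL and their highest in SL or SFGL. *Il1rn* had the opposite order at day 21. Compared with uFIB of the same day, 5 of 10 genes were higher in SL at day 12 (8.53% of all 20495 genes) and 0 were lower (8.1%), and 5 of 10 were higher in SFGL (8.84%) and 0 lower (10.2%). The 5 genes, *Il1b*, *Tnf*, *Il6*, *Retnla* and *Chi3l3*, were the same in both libraries, which share the uFIB library as their reference. At day 21, 6 of 10 were higher in SL (7.17%) and 0 lower (7.42%), and 8 of 10 were higher in SFGL (8.45%), with *Il1rn* the 1 that was lower (9.61%). In the library labelled FGL, 3 of 10 were higher at day 12 (1.72%) and 0 lower (0.176%), and at day 21, 0 were higher (0.273%) and 1, *Chi3l3*, was lower (0.215%). The called genes at day 21 in FGL were 56.0% higher, and 44.1% with equal upper quartiles. The median difference of the 10 genes at day 12 was 0.97 in both SL and SFGL, and at day 21 it was 1.25 in SL and 2.08 in SFGL, beside a median of 0.00 over all genes. The SL and SFGL libraries, with 5 to 8 of the 10 genes higher, were those highest in neutrophil, eosinophil and basophil markers and lowest in fibroblast markers. FGL of day 12 held 3218 FPKM of neutrophil and 574 FPKM of eosinophil markers, against 13.2 and 1.32 FPKM in uFIB of that day. Its fibroblast markers still summed to 6320 FPKM. The part of these cells in the differences was not tested.

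**Figure D2:**
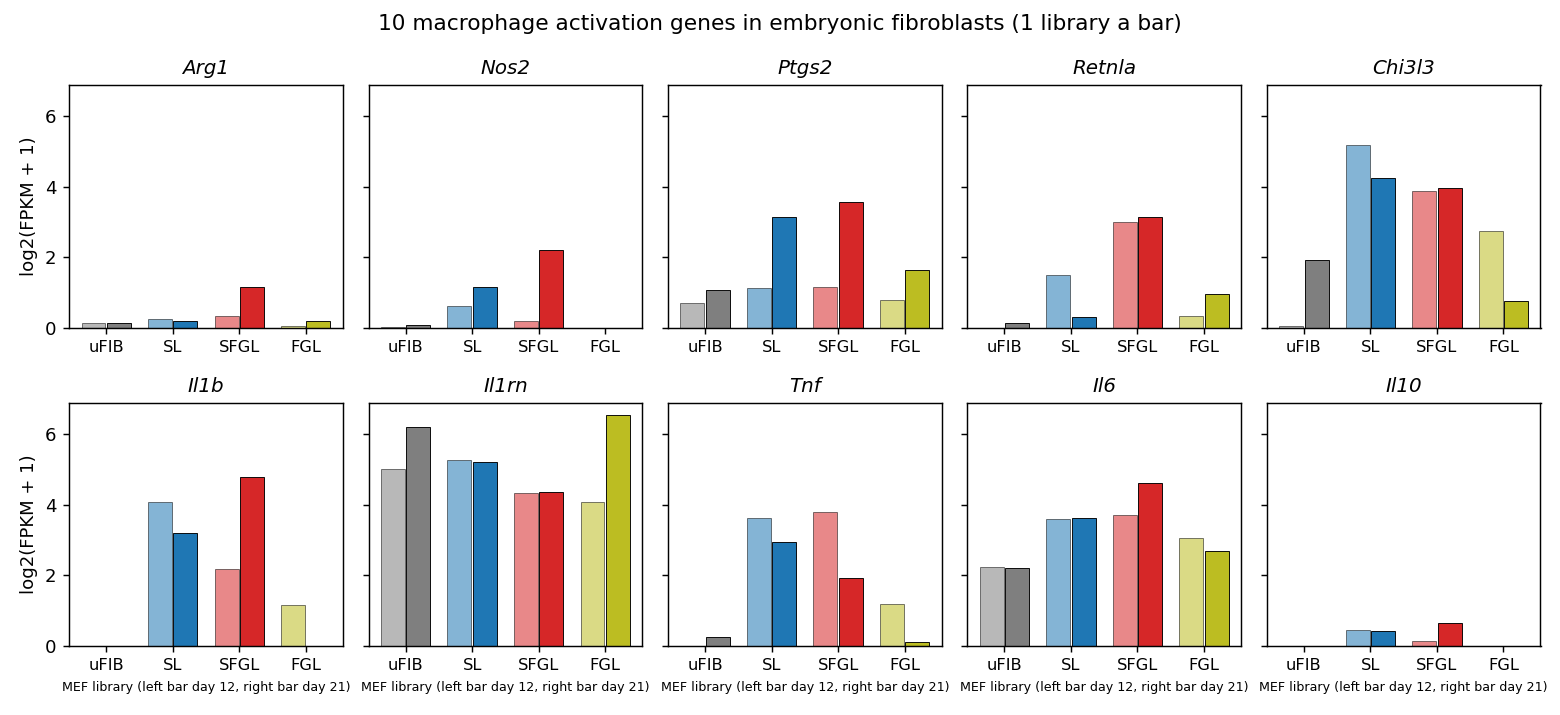
Expression of the 10 genes as log2(FPKM + 1) (vertical axis) in the 8 MEF libraries (horizontal axis), with 1 library per bar, day 12 in the lighter left bar and day 21 in the right bar. *Il1b*, *Tnf*, *Il6* and *Chi3l3* are higher in all 4 SL and SFGL libraries than in uFIB of the same day, *Nos2*, *Arg1* and *Il10* are highest in SFGL at day 21, and *Il1rn* is highest in uFIB and FGL of day 21.

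**Figure D3:**
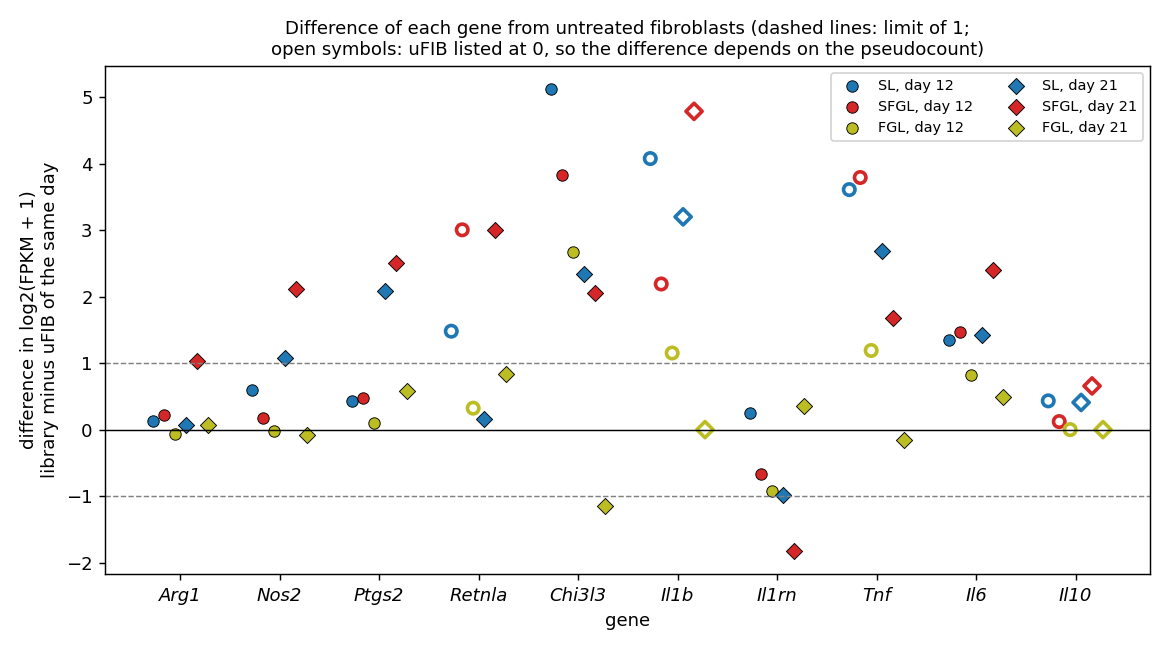
Difference in log2(FPKM + 1) between each reprogrammed library and uFIB of the same day (vertical axis) for the 10 genes (horizontal axis), with circles for day 12, diamonds for day 21 and open symbols where uFIB is listed at 0. *Chi3l3*, *Il1b*, *Tnf* and *Il6* lie above the limit of 1 in all 4 SL and SFGL libraries, whereas *Il1rn* reaches -1.83 in SFGL at day 21.

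The number of reads behind a value is not given, but the spacing of the lowest values gave a rough estimate, with 11.3 to 23.0% of genes under 0.3 FPKM at the value of 1 read. By this estimate, depth relative to uFIB of day 12 ran from 0.572 in the FGL library of day 21 to 1.58 in the SL library of day 12. All estimates of reads below use the longest GENCODE transcript of the gene and carry no interval.

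*Il1b* was listed at 0 FPKM in uFIB on both days. At day 12 it was at 15.9 FPKM in SL, 3.56 FPKM in SFGL and 1.22 FPKM in FGL, and at day 21 at 8.18 FPKM in SL, 26.6 FPKM in SFGL and again 0 FPKM in FGL. SL was thus higher than SFGL at day 12 and lower at day 21. *Tnf* was listed at 0 FPKM in uFIB of day 12, with 11.2 FPKM in SL, 12.8 FPKM in SFGL and 1.28 FPKM in FGL. At day 21 it was at 0.189 FPKM in uFIB, 6.69 FPKM in SL, 2.79 FPKM in SFGL and 0.0659 FPKM in FGL, the last of these about 1.03 reads. *Tnf* and *Il1b*, which were called together in MAC, therefore parted in SFGL, where at day 21 *Il1b* was 7.46 times as high as at day 12 and *Tnf* was 4.60 times lower.

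*Il6* had a level in every library, including untreated cells. It was at 3.72 FPKM in uFIB, 11 FPKM in SL, 12.0 FPKM in SFGL and 7.33 FPKM in FGL at day 12, and at 3.60 FPKM in uFIB, 11.3 FPKM in SL, 23.4 FPKM in SFGL and 5.49 FPKM in FGL at day 21. The 4 SL and SFGL libraries lay above the other 4, by 1.34 to 2.41 on the log2(FPKM + 1) scale over uFIB of the same day. Among the 10 genes *Il6* and *Il1rn* were the only ones above 3 FPKM in both uFIB libraries. *Il10* was listed at 0 FPKM in uFIB and FGL on both days and was at 0.349 FPKM in SL and 0.0875 FPKM in SFGL at day 12 and at 0.327 FPKM and 0.576 FPKM at day 21. These values stand for about 12.1, 2.19, 4.34 and 9.93 reads, and no call was made.

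*Il1rn* was the highest of the 10 genes in 7 of the 8 libraries. It was at 31.1 FPKM in uFIB, 37.2 FPKM in SL, 19.2 FPKM in SFGL and 16 FPKM in FGL at day 12, and at 72.2 FPKM in uFIB, 36.2 FPKM in SL, 19.6 FPKM in SFGL and 93.0 FPKM in FGL at day 21. SL and SFGL hardly changed between the days, whereas uFIB was 2.32 times and FGL 5.80 times as high at day 21. The level of *Il1rn* divided by that of *Il1b* at day 12 was lowest in SL (2.34), then SFGL (5.39), then FGL (13.1). At day 21 this ratio was 4.42 for SL and 0.738 for SFGL, and in MAC it was 2.80. SFGL at day 21 was thus the only MEF library in which *Il1b* was above its antagonist. At day 21 *Il1rn* was lower than in uFIB by 0.98 in SL (1.01 with equal upper quartiles, past the limit) and by 1.83 in SFGL on the log2(FPKM + 1) scale. With uFIB of day 12 as the reference, the difference of SFGL was -0.64 and not past the limit.

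**Figure D4:**
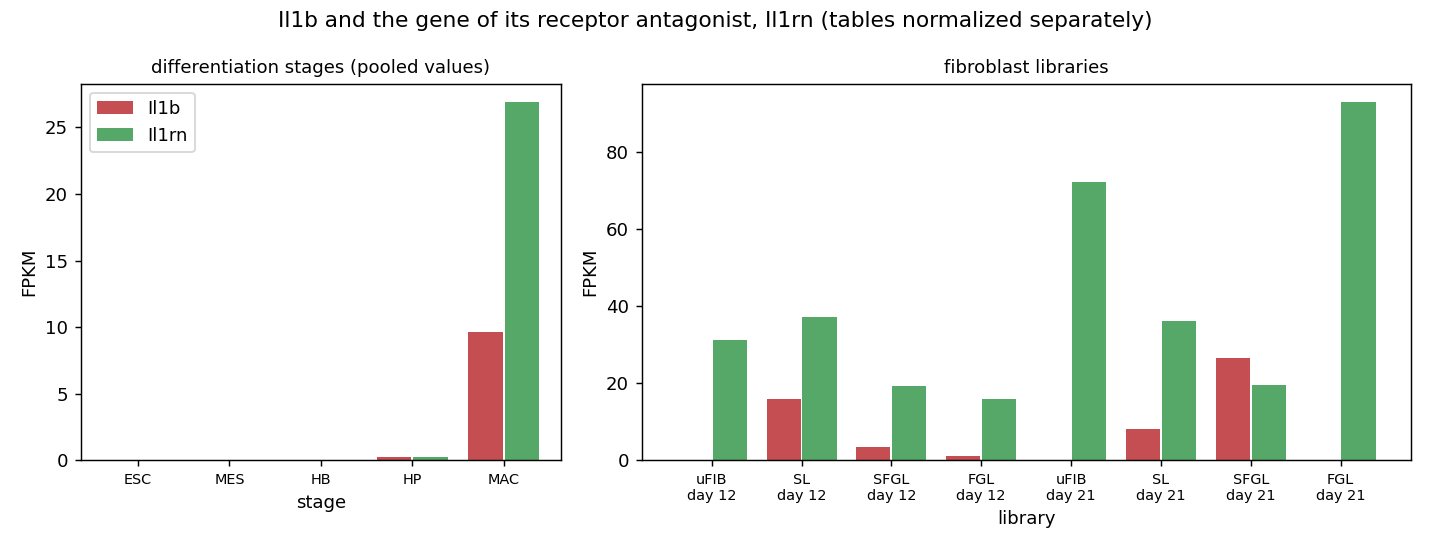
FPKM (vertical axes, starting at 0 and with separate scales) of *Il1b* and *Il1rn* at the 5 stages (left, pooled values) and in the 8 MEF libraries (right, 1 library each). In MAC *Il1rn* stands at 26.9 FPKM over 9.62 FPKM of *Il1b*, both uFIB libraries hold *Il1rn* with *Il1b* at 0, and SFGL at day 21 is the library where *Il1b* is the higher.

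*Ptgs2* was low in all 4 libraries of day 12 and higher in SL and SFGL at day 21. At day 12 it was at 0.609 FPKM in uFIB, 1.18 FPKM in SL, 1.23 FPKM in SFGL and 0.732 FPKM in FGL, and at day 21 at 1.08 FPKM in uFIB, 7.84 FPKM in SL, 10.8 FPKM in SFGL and 2.12 FPKM in FGL. Calls were made at day 21 only, where SL was higher than uFIB by 2.09 and SFGL by 2.51 on the log2(FPKM + 1) scale. *Nos2* was at 0.0144 FPKM in uFIB, 0.535 FPKM in SL, 0.140 FPKM in SFGL and 0 FPKM in FGL at day 12, and at 0.0605 FPKM in uFIB, 1.23 FPKM in SL, 3.57 FPKM in SFGL and 0 FPKM in FGL at day 21. The 2 uFIB values stand for about 1.01 and 5.98 reads, and the 2 highest, SFGL and SL at day 21, for about 197 and 52.4 reads. Like *Ptgs2*, *Nos2* was called only at day 21, by 1.08 in SL and 2.11 in SFGL on the log2(FPKM + 1) scale.

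*Arg1* was below 0.3 FPKM in 7 of the 8 MEF libraries. It was at 0.0859 FPKM in uFIB, 0.192 FPKM in SL, 0.265 FPKM in SFGL and 0.0385 FPKM in FGL at day 12, and at 0.0901 FPKM in uFIB, 0.142 FPKM in SL, 1.22 FPKM in SFGL and 0.146 FPKM in FGL at day 21. Only SFGL at day 21, about 23.7 reads, stood apart, by 1.03 on the log2(FPKM + 1) scale over uFIB, and the other 7 libraries held about 1.06 to 7.49 reads. The second arginase, *Arg2*, was the higher one in all 4 SL and SFGL libraries, at 2.91 to 9.03 FPKM.

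*Retnla* was higher in SFGL than in SL on both days. It was listed at 0 FPKM in uFIB of day 12, with 1.79 FPKM in SL, 7.02 FPKM in SFGL and 0.251 FPKM in FGL, and at day 21 it was at 0.0978 FPKM in uFIB, 0.230 FPKM in SL, 7.76 FPKM in SFGL and 0.953 FPKM in FGL. SFGL held 7 FPKM or more on both days, whereas SL held only about 1.40 reads at day 21. *Chi3l3* had the reverse order of SL and SFGL: it was at 0.0410 FPKM in uFIB, 35.3 FPKM in SL, 13.8 FPKM in SFGL and 5.65 FPKM in FGL at day 12, and at 2.75 FPKM in uFIB, 18.1 FPKM in SL, 14.5 FPKM in SFGL and 0.698 FPKM in FGL at day 21. The uFIB value of day 12 stands for about 1.05 reads and that of day 21 for about 99.9 reads, in the uFIB library that also held more neutrophil markers. The lower call of *Chi3l3* in FGL at day 21 rests on that library: against uFIB of day 12 the difference was 0.71 in the other direction.

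The relatives of these 2 genes divided in the same libraries. *Retnlg*, a neutrophil gene whose transcript is 82.8% identical to that of *Retnla* over 599 aligned bases, was at 111 to 229 FPKM in SL and SFGL, 18.9 FPKM in FGL of day 12 and at most 0.0953 FPKM in the other 3 libraries. *Retn* was at 55.8 to 69.4 FPKM in uFIB and 1.32 to 24.3 FPKM in SL and SFGL. *Chi3l4*, whose transcript is 94.3% identical to that of *Chi3l3* over 1540 aligned positions, was at most 0.108 FPKM in any library. *Chi3l1* was at 88.9 FPKM in SL and 53.0 FPKM in SFGL at day 12, against 22.9 FPKM in uFIB, *Retnlb* was at most 0.143 FPKM and *Chit1* at most 0.845 FPKM, and *Chia* was listed at 0 in all 8 libraries. The study's methods keep uniquely aligned reads, while the labels name another aligner for the MEFs, so reads shared with such relatives may be left out or split, and the values of *Chi3l3* and *Retnla* are uncertain to that extent.

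Between day 12 and day 21, 2 of 10 genes in uFIB were higher past the limit, *Chi3l3* and *Il1rn* (1.07% of all genes), and 0 were lower (0.727%). In SL 1 of 10, *Ptgs2*, was higher (1.03%) and 1, *Retnla*, was lower (1.72%). In SFGL *Nos2*, *Ptgs2* and *Il1b*, 3 of 10, were higher (1.27%) and 1, *Tnf*, was lower (1.59%). In FGL *Il1rn*, 1 of 10, was higher (1.9%) and 3, *Chi3l3*, *Il1b* and *Tnf*, were lower (2.39%). Of all called genes 37.6% were higher at day 21 in SL and 44.5% in SFGL, and 47.9% and 55.4% with equal upper quartiles. *Ptgs2* was thus higher at day 21 in both SL and SFGL, whereas *Il1b* was called only in SFGL, with 0.88 lower at day 21 in SL on the log2(FPKM + 1) scale.

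In the pathway lists, which held 116 genes in the MEFs, 24 were higher and 8 lower in SL at day 12, 22 and 12 in SFGL at day 12, 17 and 14 in SL at day 21, and 23 and 12 in SFGL at day 21. Over all genes the shares higher and lower were 8.53% and 8.1% in SL and 8.84% and 10.2% in SFGL at day 12, and 7.17% and 7.42% in SL and 8.45% and 9.61% in SFGL at day 21. In the library labelled FGL, 4 were higher and 1 lower at day 12 (1.72% and 0.176% of all genes), and 1 and 1 at day 21 (0.273% and 0.215%). Named below are those with the largest mean difference of the 4 SL and SFGL libraries from uFIB of the same day. Around *Il1b*, the inflammasome adaptor *Pycard* was at 4.52 to 7.68 FPKM in SL and SFGL and at most 0.969 FPKM in uFIB, *Il1r2* was at 0.632 to 9.67 FPKM against at most 0.537 FPKM, *Nlrp3* at 0.636 to 1.63 FPKM against at most 0.0900 FPKM, and the signalling receptor *Il1r1* was lower, at 13.3 to 19.1 FPKM against 31.9 and 46.0 FPKM. The IL-1 list held 3 higher and 0 lower in SL and 3 and 1 in SFGL at day 12, and 1 and 1 in SL and 3 and 1 in SFGL at day 21. *Casp1*, which was at 39.0 FPKM in MAC, did not exceed 0.993 FPKM in any MEF library.

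Around *Tnf*, the related ligand *Ltb* was at 2.70 to 11.6 FPKM in SL and SFGL and at most 0.0430 FPKM in uFIB, *Tnfaip3* at 4.10 to 4.69 FPKM against 1.06 and 1.45 FPKM, and *Tnfrsf1b* at 10.3 to 26.4 FPKM against 5.18 and 6.76 FPKM. Around *Il6*, the gp130 cytokine *Osm* was at 14.1 to 33.6 FPKM against at most 0.0321 FPKM, whereas the receptor chain *Il6st* was lower, at 89.5 to 109 FPKM against 278 and 297 FPKM. Around *Ptgs2*, *Ptgs1* was at 35.2 to 47.0 FPKM against 1.98 and 2.71 FPKM and *Tbxas1* at 6.59 to 15.9 FPKM against at most 0.0861 FPKM, and *Ptgds* and *Hpgd* were lower, *Ptgds* at 9.33 to 15.6 FPKM against 48.9 and 58.8 FPKM and *Hpgd* at 0.419 to 0.785 FPKM against 2.20 and 6.0 FPKM. *Ptgs1* thus stood above *Ptgs2* in all 8 MEF libraries, as it did in MAC.

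Around *Arg1* and *Nos2*, *Arg2* was higher, and *Slc7a2*, at 1.61 to 3.03 FPKM against 11.7 and 20.2 FPKM, and *Ddah2*, at 12.2 to 19.0 FPKM against 35.6 and 37.4 FPKM, were lower. *Slc7a2* was high in MAC and low in SL and SFGL. The cytokines that induce *Arg1* and *Retnla* had a level in SL and SFGL, with *Il4* at 2.71 to 3.60 FPKM and *Il13* at 0.962 to 6.69 FPKM, both listed at 0 in uFIB on both days. *Il4ra*, the receptor chain that IL-4 and IL-13 share, was at 24.3 to 37.7 FPKM in SL and SFGL against 25.5 and 30.2 FPKM in uFIB. *Il2rg*, the common γ chain, which serves IL-4 but not IL-13, was at 11.2 to 19.0 FPKM against 2.33 and 3.37 FPKM, and *Pparg* was lower, at 3.97 to 8.71 FPKM against 32.3 and 48.1 FPKM. *Il4* and *Il13* are also made by basophils, eosinophils and mast cells, some of whose markers were high in the same libraries. *Mcpt8* was at 620 to 736 FPKM and *Epx* at 447 to 2365 FPKM in SL and SFGL. Other markers of these cells were low there, with *Fcer1a* at 0.639 to 1.41 FPKM and *Il5ra* at 0.0417 to 0.273 FPKM. Around *Nos2*, the LPS co-receptor *Cd14* was at 21.0 to 50.2 FPKM against 3.70 and 6.30 FPKM and *Ifngr1* at 62.7 to 83.7 FPKM against 30.9 and 31.1 FPKM, whereas the interferon target *Cxcl10* was lower, at 0.315 to 1.68 FPKM against 4.79 and 5.26 FPKM. *Ifng* was listed at 0 in all 8 libraries.

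Of NF-κB subunits and inhibitors *Nfkbia* alone had a mean difference past the limit, at 32.8 to 50.7 FPKM in SL and SFGL against 14.7 and 19.8 FPKM in uFIB. Of the AU-rich factors this was *Zfp36l1*, lower at 35.2 to 52.5 FPKM against 82.6 and 88.0 FPKM.

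For 7 of the 10 genes, those with at least 5 FPKM in a MEF library, the most similar genes were sought by Pearson's r of log2(FPKM + 1) over the 8 libraries among 10166 genes. The libraries share days, uFIB references and blood cell content, so r is a description only. *Tnf* was most like *Fbp1*, *Prom1* and *Trem3* (r of 0.996, 0.995 and 0.994), and *Chi3l3* most like the neutrophil granule genes *Olfm4* and *Ltf* and *Dhrs11* (0.982, 0.981 and 0.978). *Ptgs2* was most like the neutrophil chemokine *Cxcl1*, *Selenbp1* and *Ube2e3* (0.970, 0.966 and 0.962), and *Il1rn* most like *Zfp703* and *Tgfbi* (0.974 and 0.955), which were, like it, highest in uFIB and FGL of day 21. *Il6* was most like *Clasp1*, *Bcl2l15* and the erythropoietin receptor *Epor* (0.987, 0.979 and 0.978). *Il1b* was most like *8030462N17Rik*, *Klhl12* and *Narf* (0.984, 0.980 and 0.980), and *Retnla* most like *Actr8*, *Dad1* and *Elac2* (0.985, 0.982 and 0.968). The 3 genes named for *Retnla* varied by little across the libraries: *Dad1*, for example, was at 120 to 139 FPKM. Some genes named for other members also varied by little, such as *8030462N17Rik* at 4.67 to 7.24 FPKM and *Ube2e3* at 19.2 to 26.5 FPKM. A high r thus does not mean a difference of similar size.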

How the data were processed

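RNA-seq values were used as the authors deposited them, in FPKM. For the stages, ribosome-depleted total RNA was sequenced on the SOLiD platform, and according to the study's methods colour-space reads were aligned to mm10 (GRCm38) with SHRiMP, unique reads were kept and duplicates removed with Picard in all experiments, and Cufflinks gave 1 FPKM value for each TSS and stage with replicates combined. The labels name Bowtie and HOMER for ESC, Cufflinks for the other stages, and TopHat and Cufflinks for the MEFs, for which the table gives 1 FPKM value for each gene and library. Versions are not given in the sources used here. Groups were taken from the labels, and 1 further value column of the stage table (HE), without a sample here, was not used.

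The 22089 TSS rows were summed by locus and name to 20310 genes. Differences were taken on log2(FPKM + 1), and a difference of at least 1 (2-fold) was called. With 1 pooled value a stage and 1 library a MEF condition there was no test, and p-values, errors and counting intervals are not given; precision beyond the rough estimate of reads is unknown. The 10 genes and the 10 pathway and 9 marker lists were chosen with earlier results of these data known. Named from each pathway list were up to 4 called genes with the largest difference from HP to MAC and up to 4 with the largest mean difference of SL and SFGL from uFIB, all paralogs with their values, and the 3 genes most like each member; 2 genes that this rule named are not reported here. *Itgam*, *Lyz2*, *Stat3* and *Pdgfrb* in the stages, and *Ear2* and *Ear6* in the MEFs, were not analysed here. Alternatives were pseudocounts of 0.1 and 0.001 with at least 1 FPKM in the higher sample, a minimum of 5 FPKM, upper-quartile scaling of genes above 0, a 4-fold limit, the highest TSS row, the mean of both uFIB libraries as reference and, chosen after the data were seen, uFIB of day 12 as reference for day 21. The depth of a MEF library was estimated from genes with 1 GENCODE M21 transcript under 0.3 FPKM. Transcripts of paralogs were compared by BLAST (version 2.17.0, e-value limit 0.001). Calls, scaling and the depth estimate were tested on simulated data. The code ran on Python 3.11.15 with matplotlib 3.10.9, pandas 2.3.3 and NumPy 2.4.6.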

Additional observations from a re-analysis of the deposited data

Results flagged for a closer look

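For 2 genes the same contrast went past the limit in opposite directions in different libraries; none of these differences was tested, since each condition has 1 library. *Chi3l3* was higher in FGL than in uFIB at day 12, by 2.68 on the log2(FPKM + 1) scale, and lower at day 21, by -1.14. Between day 12 and day 21 *Chi3l3* was higher in uFIB, by 1.85, and lower in FGL, by -1.97. In the same libraries neutrophil markers summed to 13.2 FPKM in uFIB and 3218 FPKM in FGL at day 12 and to 250 FPKM and 14.8 FPKM at day 21, and their part in the differences of *Chi3l3* was not tested. *Il1b* was higher at day 21 than at day 12 in SFGL, by 2.60, and lower in FGL, by -1.15, where it was listed at 0 FPKM at day 21.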

How the results depend on the processing

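Counts of the 10 genes past the limit moved by more than 1.5 times in 34 of 166 recomputed values, and the cause was not tested beyond what each setting leaves out. With pseudocounts of 0.1 and of 0.001, 1 gene was lower from ESC to MES (0 as reported), and 2 were higher from HB to HP, from day 12 to day 21 in SL and in FGL (1 each as reported). With at least 5 FPKM, 0 were higher from ESC to MES and HB to HP, 0 lower from MES to HB, in FGL against uFIB at day 21 and from day 12 to day 21 in SL, 1 was higher in FGL at day 12 and in uFIB between the days, 1 lower in FGL between the days, and 5 higher in SFGL at day 21 (8 as reported). With the 4-fold limit, 3 were higher in SL at day 12 and 1 in FGL at day 12, and 0 were higher from ESC to MES or in uFIB between the days, or lower from MES to HB, in SFGL or FGL against uFIB at day 21, or between the days in SL, SFGL and FGL. With upper-quartile scaling 1 gene, *Il1rn*, was lower in SL at day 21. With the mean of both uFIB libraries 1 gene, *Il1rn*, was lower in FGL as well as SFGL at day 12, and 0 in FGL at day 21. With uFIB of day 12 as reference for day 21, 1 gene, *Il1rn*, was higher in FGL, 0 were lower in FGL or SFGL, and *Chi3l3* in FGL reversed from -1.14 to 0.71. The calls of *Il1b*, *Il1rn* and *Tnf* from HP to MAC held under every setting, the 4-fold limit included. Counts over all genes moved in 64 of 140 recomputed values, 28 of them under the 4-fold limit.

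No paired analysis was possible because the result comes from no test and replicates of the stages are combined in the table; for the same reason leaving out a replicate could not be run. FPKM does not hold the number of reads, so low values, such as those of *Arg1*, *Il10* and *Nos2* in most samples, cannot be told from each other.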
